A study of Mus musculus with 12 samples.

Results

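Cyp2e1, Cyp1a2, Cyp3a11, Cyp2a5 and Cyp1a1 encode liver cytochrome P450 enzymes, and Por and Cyb5a encode the proteins that pass electrons to them. They are described here in whole liver RNA of mice given acetaminophen. The 7 genes were chosen by symbol from the 55401 genes of the deposited count table, 5 of them P450 enzymes and 2 electron carriers, and each passed the filter on low counts that left 17585 genes for testing. The 12 libraries, each from male mice aged 7 to 10 weeks, formed 4 groups of 3. FBXL5ΔDC livers at 6 h came from CD11c-Cre/Fbxl5F/F mice, in which Cre recombinase driven by the Cd11c promoter removes the loxP-flanked Fbxl5 alleles mainly in dendritic cells, 6 h after acetaminophen. Control livers at 6 h came from Fbxl5F/F mice, which carry the same flanked alleles without Cre, given the drug in the same way. FBXL5ΔDC and control livers at 0 h came from mice of these genotypes without treatment. The labels give an intraperitoneal dose of 300 or 500 mg/kg after a 16 h fast, without saying which dose was used here or whether the untreated mice were fasted.

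Acetaminophen is cleared mostly by glucuronidation and sulfation, and a smaller part is oxidised by P450 enzymes to NAPQI, a reactive quinone imine that binds glutathione and proteins. Cyp2e1 is the best known of these enzymes, with Cyp1a2 and Cyp3a11 contributing, and all of them are made mostly by the hepatocytes around the central vein, the pericentral zone in which overdose kills cells first. P450 enzymes of the endoplasmic reticulum take their electrons from NADPH through cytochrome P450 reductase, the product of Por, and cytochrome b5, the product of Cyb5a, can supply the second electron of the cycle. Cyp2a5, a coumarin 7-hydroxylase, and Cyp1a1, a target of the aryl hydrocarbon receptor (AHR), are known for their induction by toxic compounds. In these livers no edgeR test called either gene higher after the drug: Cyp1a1 was called in no comparison, and Cyp2a5 fell in FBXL5ΔDC livers and lay above every untreated liver in 2 of 3 control livers.

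Total counts ran from 67173096 to 72512319 per library. Fbxl5 itself was at 12.5 to 21.8 CPM (the counts of a gene scaled to a fixed library size, with TMM factors) in FBXL5ΔDC livers and 13.3 to 19.2 CPM in control livers at 6 h, and at 10.3 to 21.4 and 17.6 to 22.0 CPM at 0 h, so whole-liver counts did not show the deletion, and genotypes are those of the labels. The 13 hepatocyte markers, albumin among them, were abundant in every library. Replicate 3 of the control livers at 6 h stood apart from the other 2 of its group. On the first principal component, which held 39.8% of the variance, it lay at 86.8, against -9.5 and -8.2 for the other 2, 97.7 to 107.4 for FBXL5ΔDC livers at 6 h and -67.0 to -57.5 for the untreated livers. The main results that rest on it are given with and without it. Leaving it out raised the calls over all genes between genotypes at 6 h (edgeR adjusted p under 0.05). There were 1873 higher and 2376 lower of 18464 tested genes, against 238 and 793 of 17585 with it. Counts of called genes without this library are to be read beside those numbers. Nothing in the labels says that libraries of a group were prepared from separate litters or on separate days, and p-values measure only the spread between these samples.

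Near copies of a gene can share reads, and among the 7 genes this concerns Cyp2a5 most. Cyp2a5 (ENSMUSG00000005547.14) lies on GRCm38 chromosome 7 from 26835305 to 26843548, beside its paralog Cyp2a4, a steroid hydroxylase. The coding sequences of their principal GENCODE vM21 transcripts are 1485 bases long, stop codon included, and differ at 23 bases, an identity of 98.5%. The stretch from coding base 550 to 669 is shown because it holds 6 of these differences, in capitals, which are the bases that let a read be given to the right gene.
Cyp2a5: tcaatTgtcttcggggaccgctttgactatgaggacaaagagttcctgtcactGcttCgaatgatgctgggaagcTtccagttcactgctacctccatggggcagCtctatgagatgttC
Cyp2a4: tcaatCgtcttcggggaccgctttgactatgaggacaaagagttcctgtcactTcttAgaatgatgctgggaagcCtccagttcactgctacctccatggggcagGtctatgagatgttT
Of all 100-base windows of the principal Cyp2a5 transcript, 14.4% were found in a transcript of another gene, 9.56% in Cyp2a4. The share was 2.06% for Cyp1a2 and 1.46% for Cyp1a1, which share a stretch with each other, 1.5% for Cyp2e1, 0.312% for Cyp3a11 and 0 for Por and Cyb5a. No source used here says how reads that fit more than 1 gene were counted.

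The promoter of Cyp1a1 is shown because this gene is known for its induction through AHR. The window is the 250 bases before the RefSeq start on GRCm38.p6, at chr9:57697363-57697612 on the plus strand, with motif matches on either strand in capitals. The motifs were GCGTG (the core bound by AHR with ARNT) and TGACNNNGC (the core of the antioxidant response element), and no match overlapped another.
Cyp1a1: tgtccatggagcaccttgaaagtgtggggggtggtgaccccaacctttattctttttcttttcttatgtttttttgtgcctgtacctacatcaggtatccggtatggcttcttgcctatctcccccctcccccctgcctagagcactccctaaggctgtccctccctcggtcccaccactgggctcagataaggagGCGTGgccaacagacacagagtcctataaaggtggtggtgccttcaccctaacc
The Cyp1a1 window held 1 GCGTG match, starting 54 bases before the start. The Por window held 3 GCGTG matches, the Cyp2a5 window held 1 GTTAAT match at -161 from the start, and the windows of Cyp2e1, Cyp1a2 and Cyp3a11 held none of these motifs. Of 32851 mouse promoter windows of this length, 28.2% held GCGTG, 10.2% TGACNNNGC and 6.43% GTTAAT. Windows were found for 6 of the 7 genes, Cyb5a being the other.

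In FBXL5ΔDC livers, 4 of the 5 P450 genes fell 6 h after acetaminophen. Cyp2e1 fell about 10.8-fold, Cyp2a5 12.9-fold, Cyp1a2 7.07-fold and Cyp3a11 3.85-fold, while Cyp1a1, Por and Cyb5a did not pass the test. A call means an edgeR quasi-likelihood test with a Benjamini-Hochberg adjusted p under 0.05 over all 17585 genes. Of all tested genes, 15.1% were called lower in this comparison and 15% higher. These 4 of 7 calls were made in every fit tried, those leaving out each library in turn included.

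Cyp2e1 (ENSMUSG00000025479.9, GRCm38 chromosome 7 from 140763739 to 140774987) was at 1178, 701 and 649 CPM in FBXL5ΔDC livers at 6 h, against 9552, 8947 and 8793 CPM in FBXL5ΔDC livers at 0 h. The groups lay far apart, and the log2 change was -3.43 (SE 0.27, edgeR adjusted p = 1.57e-05). In control livers it was at 4527, 2513 and 3493 CPM at 6 h, against 6972, 9672 and 8020 CPM at 0 h. Every treated control liver was below every untreated one, a log2 change of -1.23 (SE 0.25, edgeR adjusted p = 0.00878). Among all genes of a library, ordered by counts, Cyp2e1 ranked 125 to 193 in FBXL5ΔDC livers at 6 h and 26 to 46 in control livers at 6 h, against 6 to 10 in the untreated livers of both genotypes.

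Cyp1a2 (ENSMUSG00000032310.4, GRCm38 chromosome 9 from 57676937 to 57683703, minus strand), which also demethylates caffeine, was at 77.7, 50.5 and 47.6 CPM in FBXL5ΔDC livers at 6 h, against 432.8, 362.6 and 446.6 CPM at 0 h. The groups did not overlap, and the log2 change was -2.82 (SE 0.24, edgeR adjusted p = 2.30e-05). Control livers had 256.5, 201.9 and 134.8 CPM at 6 h, against 300.5, 310.5 and 267.2 CPM at 0 h. These groups did not overlap either, but the log2 change of -0.57 (SE 0.23) missed the threshold (edgeR adjusted p = 0.135). Without control replicate 1 at 6 h it was -0.80 and was called (edgeR adjusted p = 0.0464), and without replicate 3, the library that stood apart, it was -0.35 (edgeR adjusted p = 0.326).

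Cyp3a11 (ENSMUSG00000056035.8, GRCm38 chromosome 5 from 145854426 to 145879964, minus strand), the main drug-inducible mouse enzyme of the Cyp3a subfamily, was at 1968, 1476 and 1934 CPM in FBXL5ΔDC livers at 6 h, against 6564, 5603 and 8531 CPM at 0 h. The treated livers were all lower, with a log2 change of -1.94 (SE 0.25, edgeR adjusted p = 0.000233). In control livers it was at 3702, 2143 and 3113 CPM at 6 h, against 7967, 5314 and 4805 CPM at 0 h. These groups did not overlap, with a log2 change of -1.01 (SE 0.24, edgeR adjusted p = 0.0201). Without control replicate 1 at 0 h, the highest of its group, the change was -0.76 and was no longer called (edgeR adjusted p = 0.0858).

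Cyp2a5 fell in FBXL5ΔDC livers, and its fitted change in control livers was positive without passing the test. It was at 45.3, 28.5 and 11.1 CPM in FBXL5ΔDC livers at 6 h, against 274.9, 307.5 and 510.5 CPM at 0 h, a log2 change of -3.69 (SE 0.66, edgeR adjusted p = 0.00258). In control livers it was at 1286, 1120 and 336.6 CPM at 6 h, against 452.6, 347.7 and 175.7 CPM at 0 h. Replicates 1 and 2 at 6 h lay above every untreated library, and replicate 3, the one that stood apart, lay within the untreated range. The log2 change was 1.49 (SE 0.60, edgeR adjusted p = 0.156), and without replicate 3 it was 1.89 (edgeR adjusted p = 0.0923). DESeq2 called the change in control livers, with a log2 change of 1.47 (DESeq2 adjusted p = 0.0287).

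Cyp2a4 had 7.46, 138.5 and 8.92 CPM in control livers at 6 h, against 5.03, 5.25 and 4.51 CPM at 0 h. Replicate 2 alone had 11205 Cyp2a4 counts, beside 90621 Cyp2a5 counts. In FBXL5ΔDC livers Cyp2a4 stayed under 5 CPM, with 3.24, 1.74 and 4.10 CPM at 6 h and 0.843, 1.59 and 2.38 CPM at 0 h. The counts of both genes were also added together, an alternative chosen after seeing these values. The log2 change of Cyp2a5 was then -3.55 in FBXL5ΔDC livers and 1.55 in control livers, against -3.69 and 1.49 for Cyp2a5 alone. This sum holds only counts already given to the 2 genes. The effect of shared reads on Cyp2a5 was not tested.

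Cyp1a1 (ENSMUSG00000032315.6, GRCm38 chromosome 9 from 57687928 to 57703824) was the rarest of the 7, with 41 to 141 counts per library. It was at 1.64, 1.05 and 1.18 CPM in FBXL5ΔDC livers at 6 h, against 1.61, 0.838 and 1.01 CPM at 0 h. Control livers had 1.05, 0.507 and 2.12 CPM at 6 h, against 1.17, 0.723 and 0.752 CPM at 0 h. The groups overlapped in each comparison and no change was called, with log2 changes of 0.16 (SE 0.50, edgeR adjusted p = 0.851) in FBXL5ΔDC livers and 0.47 (SE 0.50, edgeR adjusted p = 0.637) in control livers. Induction of Cyp1a1 by acetaminophen was thus not detectable in these livers, although an SE of 0.50 leaves room for moderate changes.

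Of the electron carriers, Por (ENSMUSG00000005514.14, GRCm38 chromosome 5 from 135670033 to 135735326) was nearly level in FBXL5ΔDC livers, at 694.9, 716.6 and 681.8 CPM at 6 h, against 689.8, 665.4 and 700.3 CPM at 0 h. The log2 change was 0.03 (SE 0.20, edgeR adjusted p = 0.942). In control livers it was at 451.9, 449.7 and 815.7 CPM at 6 h, against 608.7, 672.4 and 824 CPM at 0 h. Replicates 1 and 2 at 6 h were below every other library of the study, and replicate 3 was among the highest. The log2 change of -0.29 (SE 0.20, edgeR adjusted p = 0.422) was not called, but without replicate 3 it was -0.64 and was called (edgeR adjusted p = 0.00916).

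Cyb5a (ENSMUSG00000024646.14, GRCm38 chromosome 18 from 84838704 to 84879871) was at 516.3, 571.1 and 412.8 CPM in FBXL5ΔDC livers at 6 h, against 541.9, 564.1 and 577.6 CPM at 0 h. It was at 533.5, 476.1 and 501.6 CPM in control livers at 6 h, against 513.4, 544.4 and 599.3 CPM at 0 h. All 12 values lay between 412.8 and 599.3 CPM, and neither the log2 change of -0.17 in FBXL5ΔDC livers (SE 0.13, edgeR adjusted p = 0.370) nor that of -0.13 in control livers (SE 0.13, edgeR adjusted p = 0.596) was called.

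**Figure D1:**
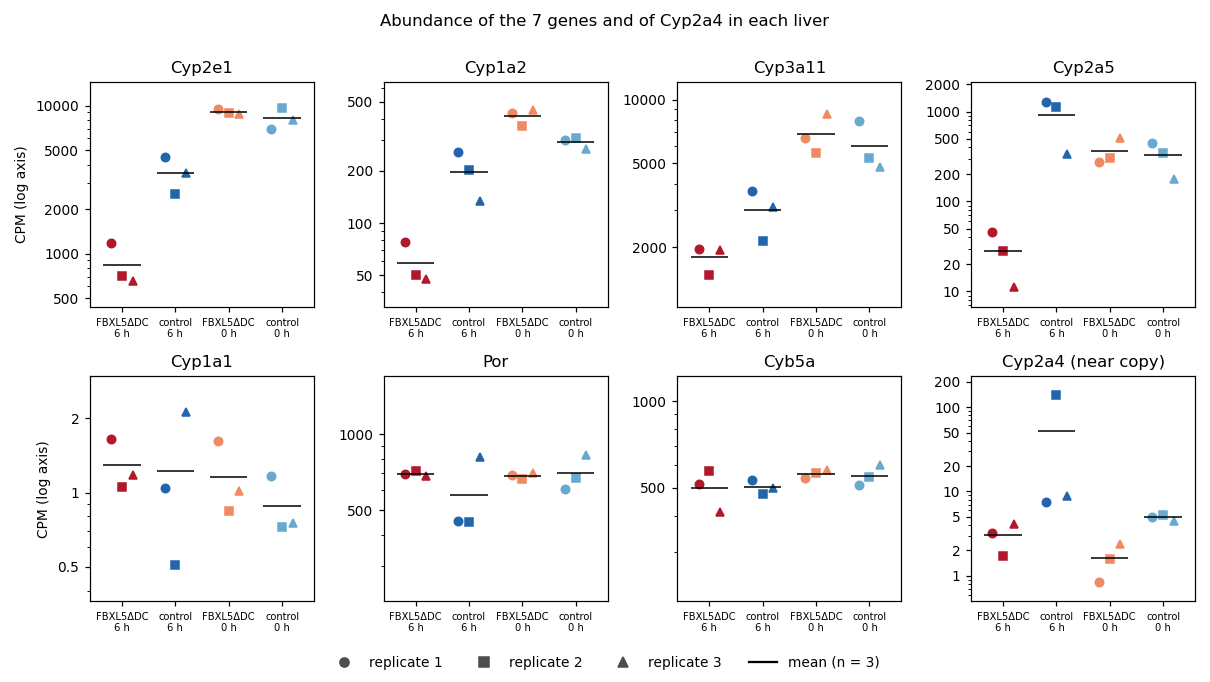
CPM of the 7 genes and of Cyp2a4 in each of the 12 livers on log axes, with FBXL5ΔDC and control livers at 6 h left of those at 0 h, a marker shape per replicate and a bar at the group mean (n = 3). Cyp2e1, Cyp1a2 and Cyp3a11 were lowest in the 3 FBXL5ΔDC livers at 6 h, Cyp2a5 ran from 11.1 CPM in that group to 1286 CPM in control livers at 6 h, and Cyb5a stayed between 412.8 and 599.3 CPM.

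In control livers, 2 of the 7 genes, Cyp2e1 and Cyp3a11, were thus called lower at 6 h, where 4.2% of all tested genes were called lower and 6.36% higher. In a fit of the 6 control libraries alone, with fewer samples to estimate the spread, none of the 7 was called (edgeR adjusted p = 0.0527 for Cyp2e1 and 0.0963 for Cyp3a11), with log2 changes as before.

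At 6 h, 3 of the 7 genes were lower in FBXL5ΔDC than in control livers, where 4.51% of all tested genes were called lower and 1.35% higher. Cyp2a5 was 32.3-fold lower, with 45.3, 28.5 and 11.1 CPM in FBXL5ΔDC livers against 1286, 1120 and 336.6 CPM in control livers (log2 -5.01, SE 0.70, edgeR adjusted p = 0.00665). Cyp2e1 was 4.17-fold lower (log2 -2.06, SE 0.25, edgeR adjusted p = 0.00365) and Cyp1a2 3.38-fold lower (log2 -1.75, SE 0.23, edgeR adjusted p = 0.00367). The groups did not overlap for any of these 3 genes, nor for Cyp3a11, whose log2 difference of -0.74 (SE 0.24) was not called by edgeR (adjusted p = 0.0924) and was called by DESeq2 (log2 -0.72, DESeq2 adjusted p = 0.0445). How many of all genes had groups without overlap was not counted, in this or the other comparisons. Overlap is therefore given as a description only.

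The 3 genotype differences were kept in each fit that left out 1 library, Cyp2a5 at -5.41 without control replicate 3 at 6 h (edgeR adjusted p = 0.000669). They were not called in a fit of the 6 libraries at 6 h alone, where the edgeR adjusted p was 0.0694 for Cyp2e1 and Cyp2a5 and 0.104 for Cyp1a2, at log2 differences of -2.06, -5.02 and -1.76. Por differed by 0.29 (SE 0.20, edgeR adjusted p = 0.444), and without control replicate 3 by 0.63, which was called (edgeR adjusted p = 0.00390). Cyp1a1 differed by 0.08 (SE 0.50, edgeR adjusted p = 0.953) and Cyb5a by -0.01 (SE 0.13, edgeR adjusted p = 0.977).

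In untreated livers, FBXL5ΔDC and control mice showed no called difference in these genes. None of the 7 was called, and with edgeR 0 of the 17585 genes were, or 0% of them. At an unadjusted edgeR p under 0.05 there were 465 of the 17585 genes, fewer than that threshold passes on average when nothing differs. DESeq2 called 9 higher and 7 lower. Cyp1a2 came nearest among the 7, at 432.8, 362.6 and 446.6 CPM in FBXL5ΔDC livers and 300.5, 310.5 and 267.2 CPM in control livers. Its groups did not overlap, but the log2 difference was 0.50 (SE 0.23) with an edgeR adjusted p of 1 (0.0451 before adjustment). For the other 6 the log2 differences lay between -0.03 for Por and 0.39 for Cyp1a1.

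The response itself differed between the genotypes for 2 genes. The log2 change of Cyp2e1 in FBXL5ΔDC livers minus that in control livers was -2.20 (SE 0.35, edgeR adjusted p = 0.0327), and that of Cyp1a2 differed by -2.26 (SE 0.32, edgeR adjusted p = 0.0293). Of all tested genes, 0.256% were called lower in this test. Cyp2a5 had the largest difference of the 7, -5.18 (SE 0.89), and missed the threshold (edgeR adjusted p = 0.0532), and Cyp3a11 differed by -0.93 (SE 0.34, edgeR adjusted p = 0.238). Each of the calls on Cyp2e1 and Cyp1a2 was lost in 9 of the 12 fits that left out a library, in which adjusted p-values reached 0.109 and 0.0990, while the differences stayed between -2.53 and -1.98 for Cyp2e1 and between -2.51 and -2.03 for Cyp1a2.

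Without control replicate 3 at 6 h, 4 of the 7 genes were called in this test. Calls rose over all genes in that fit, to 1103 higher and 1430 lower of 18464 tested genes. With all libraries they were 6 and 45 of 17585. Cyp2a5 was then called (-5.57, edgeR adjusted p = 0.00346), and so was Por in the other direction (0.66, edgeR adjusted p = 0.0247), beside Cyp2e1 (-2.21, edgeR adjusted p = 0.00183) and Cyp1a2 (-2.47, edgeR adjusted p = 5.06e-05). Cyp2a5 was also called with the Cyp2a4 counts added (-5.09, edgeR adjusted p = 0.0472).

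**Figure D2:**
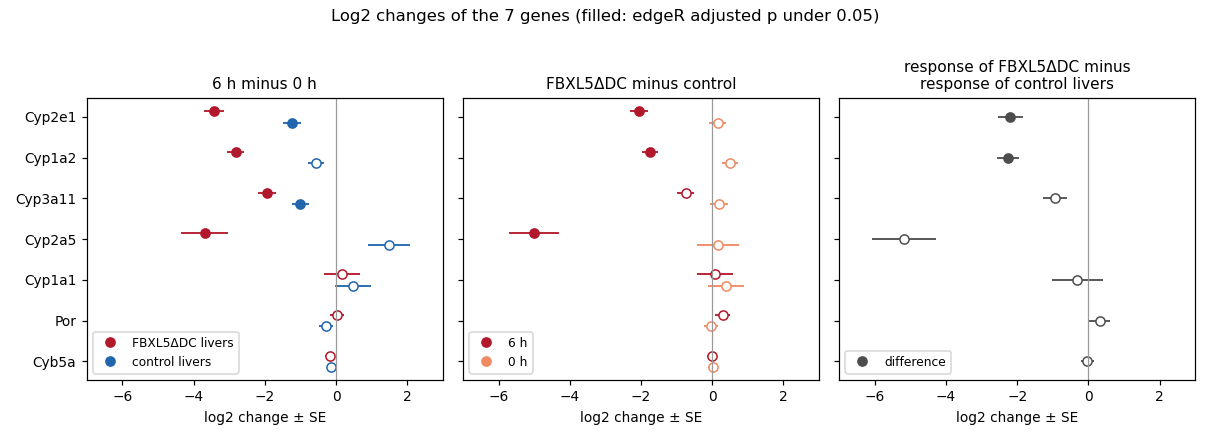
Log2 changes of the 7 genes with their SE: 6 h minus 0 h in each genotype (left), FBXL5ΔDC minus control at each time (middle) and the difference between the 2 responses (right), from the edgeR fit of all 12 libraries, with filled points for an adjusted p under 0.05. Cyp2e1, Cyp1a2, Cyp3a11 and Cyp2a5 lie left of 0 in FBXL5ΔDC livers, Cyp2a5 lies at 1.49 in control livers, and Por and Cyb5a lie near 0 in every panel.

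Levels of different genes were compared per kilobase of exon, since longer transcripts give more counts. Untreated control livers had 3810 ± 631 CPM per kb of Cyp2e1 (SD, n = 3 in each group), followed by 1184 ± 333 of Cyp3a11, 178 ± 14.0 of Cyb5a, 174.5 ± 27.5 of Por, 157 ± 67.5 of Cyp2a5, 145.4 ± 11.2 of Cyp1a2 and 0.316 ± 0.0891 of Cyp1a1. From Cyb5a down to Cyp1a2, the libraries of each gene overlapped with those of the next. The level of Cyb5a depends on the length used, since its principal transcript is 833 bases against 3104 bases of all exons. Per kb of principal transcript Cyb5a was at 663 ± 52.2 CPM, also behind Cyp2e1 and Cyp3a11.

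In FBXL5ΔDC livers at 6 h the top of the order was level, with 390.5 ± 135.3 CPM per kb of exon of Cyp2e1 and 352 ± 54.0 of Cyp3a11, a difference within the spread. Per kb of principal transcript the order there was Cyp3a11 at 765 ± 117.3 CPM, Cyb5a at 600.3 ± 96.5 and Cyp2e1 at 460 ± 159.2. Por (173.5 ± 4.37) and Cyb5a (161 ± 25.9) came next per kb of exon, with Cyp1a2 at 29.1 ± 8.24 and Cyp2a5 at 13.6 ± 8.25. Control livers at 6 h had 1627 ± 467 CPM per kb of exon of Cyp2e1, 586 ± 154.5 of Cyp3a11 and 441 ± 245 of Cyp2a5.

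The makeup of the transcripts of the 5 P450 genes shifted with these changes. As a share of the summed counts per kb of exon of the 5 P450 genes, Cyp3a11 made up 38.9, 44.3 and 53.5% in FBXL5ΔDC livers at 6 h and 20.3, 18.9 and 24.9% in control livers at 6 h, against 21.3, 19.7 and 26.9% in FBXL5ΔDC and 30.3, 17.8 and 19.3% in control livers at 0 h. The 3 FBXL5ΔDC livers at 6 h were above all others. Cyp2a5 made up 2.20, 2.10 and 0.752% in FBXL5ΔDC livers at 6 h and 17.4, 24.3 and 6.60% in control livers at 6 h, against 2.94 ± 0.918% in FBXL5ΔDC and 2.94 ± 1.25% in control livers at 0 h. The 3 control livers at 6 h were above all others. Cyp1a2 kept a share of 2.64 to 4.51% in every library. The shares depend on the length used, since the principal Cyp3a11 transcript is 2344 bases against 5093 bases of all exons. Per kb of principal transcript, Cyp3a11 made up 54.3, 59.8 and 68.2% in FBXL5ΔDC livers at 6 h, again above all other livers. Cyp2e1 made up 41.6, 36.3 and 29.25% there.

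Set against the summed transcripts of the 5 P450 genes, those of Por and Cyb5a were more frequent in FBXL5ΔDC livers at 6 h than in any other group. Per 100 of the summed P450 counts per kb of exon there were 17.4, 27.3 and 23.9 of Por in FBXL5ΔDC livers at 6 h and 3.15, 5.02 and 8.25 in control livers at 6 h, against 2.83, 2.97 and 2.80 in FBXL5ΔDC and 2.93, 2.86 and 4.20 in control livers at 0 h. The FBXL5ΔDC livers at 6 h were above all others, and control livers at 6 h overlapped with control livers at 0 h. This ratio was 7.84-fold higher at 6 h than at 0 h in FBXL5ΔDC livers (log2 2.97) and 4.43-fold higher in FBXL5ΔDC than in control livers at 6 h (log2 2.15). Each had a two-sided exact permutation p of 0.10, the smallest that 3 against 3 can give, so that this test cannot pass 0.05. In control livers the log2 difference between 6 h and 0 h was 0.63 (exact permutation p = 0.2), with overlap. Cyb5a per 100 P450 was at 16.7, 28.1 and 18.7 in FBXL5ΔDC livers at 6 h and 4.81, 6.89 and 6.57 in control livers at 6 h, against 3.04 ± 0.195 and 3.39 ± 0.505 at 0 h (mean ± SD, n = 3 each). The ratio compares transcripts and says nothing of protein amounts. Its sum holds mostly Cyp2e1 and Cyp3a11. Other abundant P450 genes are left out, and these moved both ways in FBXL5ΔDC livers. Cyp2f2 was at 936 CPM at 0 h and 1535 CPM at 6 h, and Cyp2a12 at 448 and 875 CPM. Cyp3a25 was at 809 CPM at 0 h and 547 CPM at 6 h, and Cyp2c29 at 627 and 106 CPM. Por per transcript of all P450 genes was not tested.

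**Figure D3:**
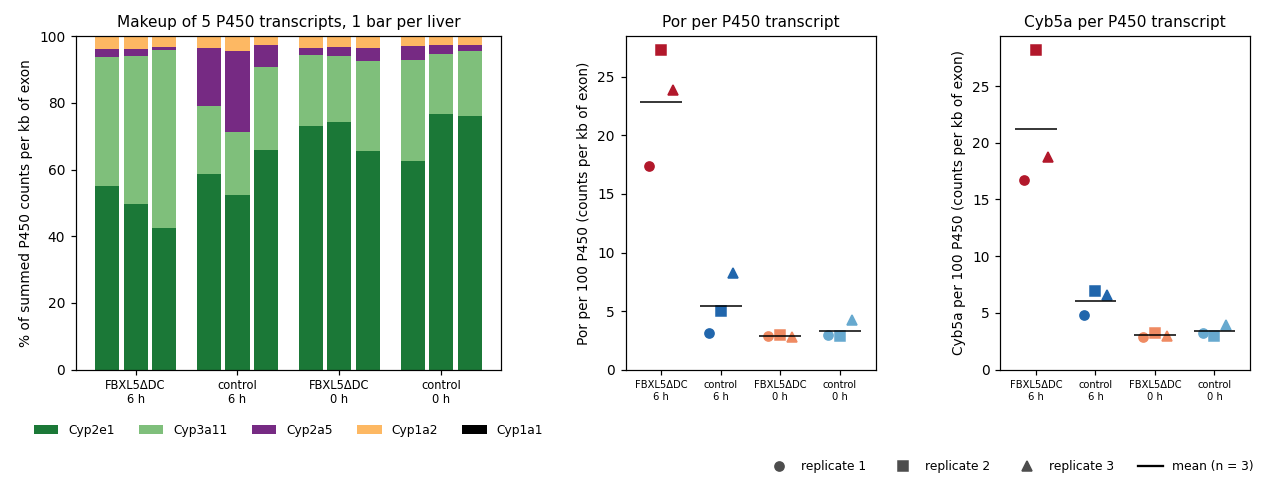
Share of each P450 gene in the summed counts per kb of exon of the 5 P450 genes, 1 bar per liver in replicate order (left), and Por (middle) and Cyb5a (right) per 100 of that sum, with points for livers and a bar at the mean (n = 3). Cyp3a11 took 38.9 to 53.5% in FBXL5ΔDC livers at 6 h, Cyp2a5 took 6.60 to 24.3% in control livers at 6 h, and Por reached 17.4 to 27.3 per 100 in FBXL5ΔDC livers at 6 h.

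Of 12 near paralogs of the P450 genes listed, 11 were tested, of which 2 rose and 1 fell in FBXL5ΔDC livers, near the 15% higher and 15.1% lower of all tested genes, and none was called in control livers or between genotypes at 6 h. Without control replicate 3, 1 was higher and 1 lower between genotypes, beside 1873 and 2376 of 18464 tested genes. The lower one was Cyp2a4 (log2 -4.59, edgeR adjusted p = 0.0172). Cyp2a12 was at 875 ± 109 CPM in FBXL5ΔDC livers at 6 h and 448 ± 34.2 CPM at 0 h (log2 0.97, edgeR adjusted p = 0.00357), and Cyp2a22 at 4.67 ± 0.466 and 2.10 ± 1.03 CPM (log2 1.15, edgeR adjusted p = 0.0325). Cyp3a59, a gene of the Cyp3a cluster, was at 40.5 ± 5.79 and 69.1 ± 16 CPM (log2 -0.77, edgeR adjusted p = 0.0400), a call that was not made in the fit without control replicate 3 at 6 h.

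The falls of Cyp2e1 and Cyp1a2 were shared by other pericentral genes. Of 16 such genes that are not P450 enzymes of drug oxidation, 14 were lower at 6 h in FBXL5ΔDC livers, 8 in control livers and 11 in FBXL5ΔDC against control livers at 6 h, and none was higher. Of all tested genes, 15.1%, 4.2% and 4.51% were called lower in these comparisons. The median log2 changes of the 16 were -3.43, -1.25 and -1.88, beside 0.02, 0.03 and -0.01 over all tested genes. Slc1a2, a glutamate transporter, was at 0.0608 ± 0.0614 CPM in FBXL5ΔDC livers at 6 h and 169 ± 22.6 CPM at 0 h (edgeR adjusted p = 0.000131), where the lower value stands for 12 counts in 3 libraries. Tbx3, a transcription factor of this zone, was at 0.658 ± 0.0243 and 35.7 ± 6.17 CPM (edgeR adjusted p = 0.000539), and Lhpp, a phosphatase, at 2.39 ± 0.812 and 66.0 ± 8.68 CPM (edgeR adjusted p = 5.35e-05). Without control replicate 3 at 6 h the counts of lower genes were 14, 7 and 11, beside 3188, 712 and 2376 of 18464 tested genes.

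In the test of the difference between responses, 4 of the 16 pericentral genes were called lower, beside 0.256% of all tested genes. Without control replicate 3 at 6 h there were 11, beside 1430 of 18464 tested genes. Oat, ornithine aminotransferase, was among the 4, and fell to 44.4, 34.5 and 30.0 CPM in FBXL5ΔDC livers at 6 h, against 966, 1144 and 870 CPM at 0 h. In control livers it was at 389.7, 365.1 and 145.7 CPM at 6 h, against 592.6, 920 and 1078 CPM at 0 h. Glul, glutamine synthetase, which marks the cells next to the central vein, fell in both genotypes. It was at 109.5, 129.1 and 135.7 CPM in FBXL5ΔDC and 142.9, 52.7 and 101.5 CPM in control livers at 6 h, values that overlapped (log2 0.33, edgeR adjusted p = 0.491).

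None of the markers of hepatocytes as a whole was called lower. The summed level of the 13 hepatocyte markers was 148343 to 189529 CPM in FBXL5ΔDC livers and 99491 to 156723 CPM in control livers at 6 h, against 119600 to 131150 and 105791 to 114749 CPM at 0 h, and 2 of the 13 rose and none fell in FBXL5ΔDC livers. In FBXL5ΔDC livers 15% of all tested genes rose and 15.1% fell. Between genotypes at 6 h no hepatocyte marker was called. Without control replicate 3 there were 5 higher in FBXL5ΔDC livers, beside 1873 of 18464 tested genes. Of 12 periportal genes, made around the portal vein, 3 rose in FBXL5ΔDC livers (Hsd17b13, log2 1.12; the P450 gene Cyp2f2, log2 0.71; and Asl of the urea cycle, log2 0.44) and Pck1, of glucose synthesis, fell (log2 -1.56). In bulk liver RNA, fewer cells of a zone and less RNA per cell cannot be told apart.

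Other RNA moved between FBXL5ΔDC livers at 6 h and at 0 h, where 15% of all tested genes rose and 15.1% fell. Of 8 sinusoidal endothelial markers 7 rose in FBXL5ΔDC livers, with sums of 304.7 to 361.4 CPM at 6 h and 140.2 to 181.6 CPM at 0 h, and in control livers the sums were 147.2 to 261.4 CPM at 6 h and 136.4 to 169.8 CPM at 0 h. In the same comparison of FBXL5ΔDC livers, 4 of 8 stellate, 3 of 10 Kupffer and 10 of 13 mitochondrially encoded genes rose, with mitochondrial sums of 90240 to 107449 CPM at 6 h and 63565 to 68339 CPM at 0 h. Between genotypes at 6 h, 10 of 13 mitochondrially encoded genes were also higher in FBXL5ΔDC livers, where control livers had sums of 54141 to 70874 CPM, and 1 of 8 endothelial markers was, or 7 without control replicate 3. Of all tested genes 1.35% were called higher there, and 1873 of 18464 without control replicate 3. In FBXL5ΔDC livers after the drug, 4 of 7 cholangiocyte markers rose and 1 fell, and of 10 neutrophil markers 4 were tested and 3 rose, at sums of 2.71 to 8.84 CPM at 6 h. Sums of 10 dendritic cell markers stayed between 5.43 and 9.15 CPM in every library, with 1 marker called lower in FBXL5ΔDC livers and none in the other comparisons, while without control replicate 3 there were 2 lower in FBXL5ΔDC livers and 1 lower between genotypes at 6 h. In that fit 3188 and 2376 of 18464 tested genes were lower in these 2 comparisons. Of 6 tested red blood cell genes, 1 rose in control livers, beside 6.36% of all tested genes. No listed marker was at 0 in every library. The part of these RNAs in the P450 results was not tested.

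**Figure D4:**
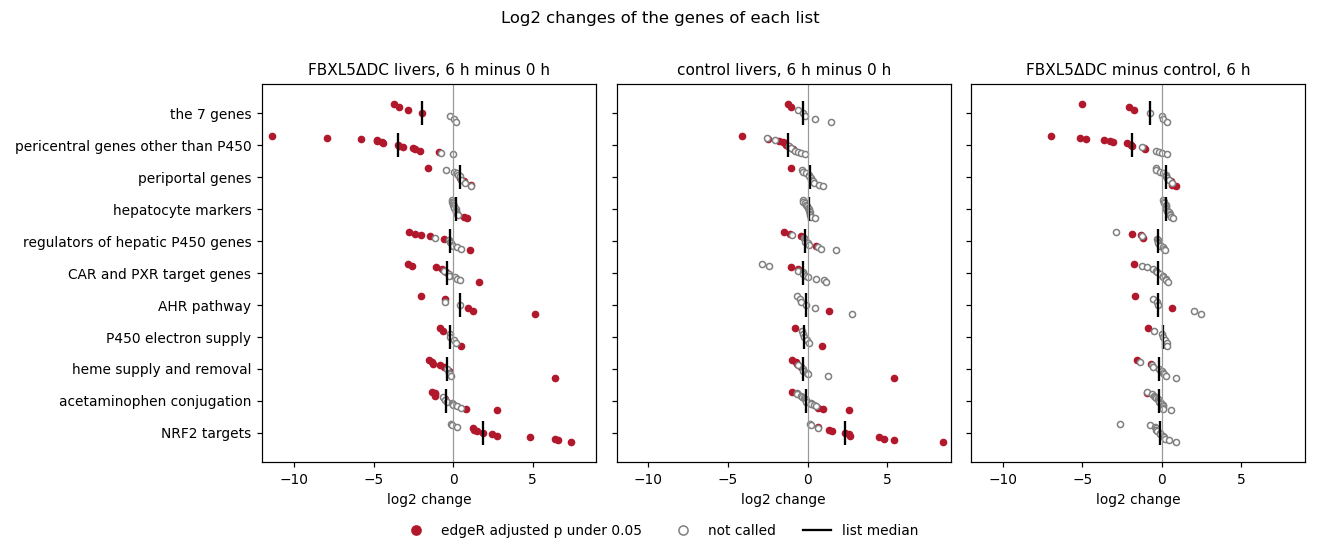
Log2 changes of the 7 genes and of the tested genes of 10 lists, 1 point per gene, in FBXL5ΔDC livers (left), control livers (middle) and FBXL5ΔDC against control livers at 6 h (right), red for an edgeR adjusted p under 0.05 and with a bar at each list's median. Pericentral genes have medians of -3.43, -1.25 and -1.88, hepatocyte markers have medians of 0.17, 0.07 and 0.27, and NRF2 targets have medians of 1.89, 2.34 and -0.15.

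Of 14 listed transcription factors that act on P450 genes, 5 fell and 1 rose in FBXL5ΔDC livers, where 15.1% of all tested genes fell and 15% rose. In control livers 3 fell and 1 rose, beside 4.2% and 6.36% of all genes, and 3 were lower in FBXL5ΔDC than in control livers at 6 h, beside 4.51% of all genes. Without control replicate 3 at 6 h, 1 fell in control livers and 6 were lower between genotypes, beside 712 and 2376 of 18464 tested genes. Nr1i3, the xenobiotic receptor CAR, was at 31.9, 44.5 and 31.4 CPM in FBXL5ΔDC livers at 6 h and 141.3, 63.1 and 60.0 CPM in control livers at 6 h, against 265, 231.6 and 233 CPM in FBXL5ΔDC and 250.8, 282 and 219.9 CPM in control livers at 0 h. All 6 treated livers were below all untreated ones, and the FBXL5ΔDC livers were the lowest. Its log2 change was -2.76 in FBXL5ΔDC livers (edgeR adjusted p = 0.000114) and -1.51 in control livers (edgeR adjusted p = 0.00714), and the genotypes differed by -1.29 at 6 h (edgeR adjusted p = 0.0244). The difference between the responses was -1.25 and not called (edgeR adjusted p = 0.178), and -1.47 and called without control replicate 3 (edgeR adjusted p = 0.0249).

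In FBXL5ΔDC livers Nr0b2, the corepressor SHP, changed by -2.37 (edgeR adjusted p = 0.00142). Ppara, the fatty acid receptor, was at 21.2 ± 8.12 CPM at 6 h and 84.8 ± 9.67 CPM at 0 h (edgeR adjusted p = 0.000421). Hnf4a, the hepatocyte nuclear receptor, named after its values were seen, was at 760 ± 186 and 799.5 ± 88.9 CPM and was not called (log2 -0.07, edgeR adjusted p = 0.834). The list of genes induced through CAR and PXR held 13 genes beside those described above, 12 of them tested. Of these, 5 fell and 1 rose in FBXL5ΔDC livers, beside 15.1% and 15% of all tested genes, and 2 fell in control livers, beside 4.2%. Cyp2c29, a CAR target, was at 122.5, 97.9 and 97.6 CPM in FBXL5ΔDC livers and 369.5, 397.7 and 315.3 CPM in control livers at 6 h (log2 -1.77, edgeR adjusted p = 0.00474), groups that did not overlap. It was the only gene of this list called between genotypes at 6 h, beside 4.51% of all tested genes called lower. It was also the only one called in the difference between responses (log2 -1.96, edgeR adjusted p = 0.0483), beside 0.256% called lower. Cyp2b10, another CAR target of the list named after its values were seen, stayed level. It was at 9.80 ± 8.06 CPM in FBXL5ΔDC and 9.51 ± 5.475 CPM in control livers at 6 h, against 11.7 ± 10.6 and 9.97 ± 3.755 CPM at 0 h.

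Of the 9 genes of the AHR pathway, 7 were tested, of which 3 rose and 2 fell in FBXL5ΔDC livers and 1 rose in control livers. Of all tested genes, 15% rose and 15.1% fell in FBXL5ΔDC livers and 6.36% rose in control livers. Ahr, the receptor gene, was at 13.3, 10.9 and 11.7 CPM in FBXL5ΔDC livers at 6 h, against 49.3, 43.5 and 51.3 CPM at 0 h (log2 -2.01, edgeR adjusted p = 0.00311). Control livers had 71.2, 21.3 and 23.5 CPM at 6 h, above every FBXL5ΔDC liver at 6 h (log2 -1.70 between genotypes, edgeR adjusted p = 0.0305). Untreated control livers had 43.0, 56.8 and 63.2 CPM, so treated control replicates 2 and 3 lay below them and replicate 1 above. Its partner Arnt rose (log2 0.93, edgeR adjusted p = 0.00158). Tiparp, an AHR target that encodes an ADP-ribosyltransferase, was at 106.9, 162.3 and 139.9 CPM in FBXL5ΔDC livers at 6 h and 4.43, 6.45 and 63.6 CPM in control livers at 6 h, against 2.82 to 4.59 CPM in the 6 untreated livers. It rose in FBXL5ΔDC livers (log2 5.15, edgeR adjusted p = 0.00370), and control replicate 3 lay nearest to that group. The genotypes differed by 2.46 at 6 h (edgeR adjusted p = 0.123), and by 4.65 without replicate 3 (edgeR adjusted p = 2.32e-07). Cyp1a1, the classical AHR target, was at 1.05 to 1.64 CPM in the FBXL5ΔDC livers in which Tiparp was highest. Ahrr, another AHR target named after its values were seen, had at most 27 counts in any library. The listed targets Nqo1, Ugt1a6a and Cyp1b1 were named in the same way. In FBXL5ΔDC livers Nqo1 was at 13.7 ± 0.494 CPM at 6 h and 5.74 ± 1.60 CPM at 0 h, with 16.9 ± 4.79 CPM in control livers at 6 h. Ugt1a6a was at 87.6 ± 13.2 and 126.7 ± 29.4 CPM in FBXL5ΔDC livers at 6 h and 0 h. Cyp1b1 was at 0.791 ± 0.204 and 0.589 ± 0.123 CPM there.

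Of 7 further genes of electron supply to P450 enzymes, 1 rose and 2 fell in FBXL5ΔDC livers, and 1 rose and 1 fell in control livers. Of all tested genes, 15% rose and 15.1% fell in FBXL5ΔDC livers, and 6.36% and 4.2% in control livers. A list of 7 genes is too short to set apart from these shares. In FBXL5ΔDC livers Cyb5b, the mitochondrial outer membrane form of cytochrome b5, fell (log2 -0.84, edgeR adjusted p = 0.00284), as did Pgrmc2, a heme-binding membrane protein (log2 -0.61, edgeR adjusted p = 0.0103), and Fdx1, the ferredoxin of mitochondrial P450 enzymes, rose (log2 0.52, edgeR adjusted p = 0.0406). Pgrmc2 was the gene that fell in control livers, where Cyb5r1, a reductase of the cytochrome b5 family, rose. Between genotypes at 6 h, Cyb5r1 alone was called, lower in FBXL5ΔDC livers (log2 -0.90, edgeR adjusted p = 0.0286), beside 4.51% of all tested genes. Without control replicate 3 there were 2 higher and 2 lower, beside 1873 and 2376 of 18464 tested genes.

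Heme, the group that every P450 holds, is made by a pathway of which several genes fell. Of 11 genes of heme supply and removal, 6 fell and 1 rose in FBXL5ΔDC livers, beside 15.1% and 15% of all tested genes. In control livers 4 fell and 1 rose, beside 4.2% and 6.36%. At 6 h 2 were lower in FBXL5ΔDC than in control livers, beside 4.51%. Without control replicate 3 that number was 5, beside 2376 of 18464 tested genes. Cpox fell in both genotypes (log2 -1.52 and -0.99, edgeR adjusted p = 0.00128 and 0.0303), and Uros fell in FBXL5ΔDC livers (log2 -1.34, edgeR adjusted p = 0.0190). The gene that rose was Hmox1, heme oxygenase, which breaks heme down, at 893, 1548 and 772 CPM in FBXL5ΔDC livers at 6 h and 350.1, 228.8 and 1158 CPM in control livers at 6 h, against 9.27 to 15.8 CPM in the untreated livers. Between genotypes at 6 h it was not called, and without control replicate 3 it was higher in FBXL5ΔDC livers (log2 1.89, edgeR adjusted p = 0.00258), with a difference between responses of 1.94 (edgeR adjusted p = 0.0151). Alas1, the rate-limiting enzyme of heme synthesis, was named after its values were seen. It was at 331.5, 327.8 and 454.3 CPM in FBXL5ΔDC livers at 6 h and 1176, 1453 and 283.6 CPM in control livers at 6 h, against 281.6 to 523.6 CPM in the untreated livers. Control replicates 1 and 2 were the only libraries above that range, the same 2 that were highest in Cyp2a5, and no comparison of Alas1 was called (edgeR adjusted p = 0.106 in control livers).

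Of 16 listed genes that conjugate acetaminophen or renew glutathione, 2 rose and 6 fell in FBXL5ΔDC livers, beside 15% and 15.1% of all tested genes, and 3 rose and 1 fell in control livers, beside 6.36% and 4.2%. Between genotypes at 6 h 1 was lower, beside 4.51% of all tested genes. Without control replicate 3 there were 2 higher and 3 lower, with 3 called lower in the difference between responses. In that fit 1873 of 18464 tested genes were higher and 2376 lower between genotypes, and 1430 were lower in the difference between responses. Gclc, the catalytic subunit of the first enzyme of glutathione synthesis, rose in both, to 2502 ± 176.5 CPM in FBXL5ΔDC livers (against 369 ± 45.1 CPM at 0 h, log2 2.76, edgeR adjusted p = 9.75e-05) and to 2363 ± 1174 CPM in control livers (against 381 ± 80.3 CPM at 0 h, log2 2.63, edgeR adjusted p = 0.000292). Gsta3, a glutathione transferase, was lower in FBXL5ΔDC than in control livers at 6 h, at 294.5 ± 92.6 and 552 ± 68.4 CPM (log2 -0.91, edgeR adjusted p = 0.0276). The factor NRF2 answers electrophiles such as NAPQI, and 10 of its 13 listed target genes rose in each genotype, with median log2 changes of 1.89 in FBXL5ΔDC and 2.34 in control livers. Of all tested genes, 15% rose in FBXL5ΔDC and 6.36% in control livers. Srxn1, sulfiredoxin, was at 1591 ± 210 CPM in FBXL5ΔDC livers at 6 h and 54.7 ± 2.88 CPM at 0 h (log2 4.86, edgeR adjusted p = 4.37e-06). None of the 13 was called between genotypes at 6 h. Without control replicate 3, 10 and 9 rose, beside 3117 and 965 of 18464 tested genes. Between genotypes at 6 h 4 were then higher and 1 lower in FBXL5ΔDC livers, beside 1873 and 2376 of 18464 tested genes. Some genes were on 2 lists and were counted in each. Of the NRF2 targets, Gclc, Gclm and Gstm1 were also on the conjugation list, Hmox1 on that of heme and Nqo1 on the AHR list. Ugt1a6a was on the AHR and conjugation lists, and Hnf4a was both a listed transcription factor and a hepatocyte marker.

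Across the 12 libraries, log2 CPM of Cyp2e1 and Cyp1a2 moved together (Pearson r = 0.97), as did Cyp2e1 and Cyp3a11 (r = 0.92) and Cyp1a2 and Cyp3a11 (r = 0.90). The 12 points fall into the 4 groups, so these values describe mostly the group differences. Cyp2a5 was at r = 0.81 with Cyp1a2 and 0.57 with Cyp3a11, Cyb5a at 0.56 with Cyp2e1, and Por at 0.02 with Cyp2e1 and -0.52 with Cyp2a5. Among 7400 genes with a mean of at least 10 CPM, those most like Cyp2e1 over the 12 libraries were Pias4 (r = 0.985), Aldh3a2 (0.982) and Rmdn2 (0.981). Those most like Cyp1a2 were Akr1c6 (0.982), Hexim1 (0.982) and Gulo (0.980), and those most like Cyp3a11 were Rabep1 (0.964), Ip6k1 (0.963) and Slc17a2 (0.957).

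Likeness to Cyp2a5 was highest for Papola (0.973), Cacfd1 (0.969) and Cyp4f14 (0.963), likeness to Por for Pnpla2 (0.946), Gk (0.935) and Tgoln1 (0.920), and likeness to Cyb5a for Abhd17a (0.930), Asgr1 (0.930) and Rtn3 (0.924). Cyp1a1 had the loosest neighbours, Cmas (0.847), Lpar6 (0.837) and Zfas1 (0.832). High likeness did not mean a like size of change. Pias4, nearest to Cyp2e1, was at 10.5 CPM in FBXL5ΔDC livers at 6 h and 18.4 CPM at 0 h, whereas Cyp2e1 was at 843 and 9097 CPM, and Papola, nearest to Cyp2a5, was at 48.7 and 88.0 CPM, whereas Cyp2a5 was at 28.3 and 364 CPM.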

How the data were processed

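Whole-number counts per gene without normalisation were deposited by the authors for the 12 libraries, and these deposited values were handled as estimated counts. The submitters' processing notes name Trim Galore (version 0.6.6), HISAT2 (version 2.2.1) and the build mm10, with no order or settings. The counting program and its strand setting are not given in the sources used here. Values from 1 to 40 were multiples of 4 in 26.5% to 28.5% of cases, against 25% for an even spread, which is why they were not taken to be plain read counts; no source used here says whether they are estimates. Antisense genes overlap Por and Cyb5a without sharing exons.

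Genes were filtered with filterByExpr and scaled with TMM factors (0.855 to 1.14), and edgeR 4.0.16 (R 4.3.3) fitted 1 coefficient per group with a robust quasi-likelihood test, 8 residual degrees of freedom and a biological coefficient of variation of 0.391. It was tested on simulated data. The test planned for counts was kept, since the deposited values are whole numbers. Log2 CPM used a prior count of 2. Annotation was GENCODE vM21, matched by 99.5% of identifiers. Alternatives were DESeq2 1.42.0, other scaling factors, no filter, the 2 groups alone, a replicate block and leaving out each library. The members and lists were chosen with earlier results of these data known. All 7 genes were named. Of each list, up to 4 genes with the largest called changes could be named, and for likeness the 3 genes of highest correlation.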

Additional observations from a re-analysis of the deposited data

Results flagged for a closer look

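The response to acetaminophen differed between the genotypes for Cyp2e1, by a log2 value of -2.20 (SE 0.35, edgeR adjusted p = 0.0327), and for Cyp1a2, by -2.26 (SE 0.32, edgeR adjusted p = 0.0293). Both were lower at 6 h in every FBXL5ΔDC liver than in every untreated liver of that genotype, and both calls were lost in 9 of 12 fits that left out a library.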

How the results depend on the processing

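Of 628 log2 changes of the 7 genes recomputed under another setting, 573 kept their direction and their side of the threshold, 24 lost a call, 9 gained one and 22 changed sign. In fits of only the 2 groups compared, 0 of the 7 genes were called in control livers and 0 between genotypes at 6 h. Leaving out 1 library at a time gave 4 called genes in FBXL5ΔDC livers, 1 to 3 in control livers (1 without control replicate 1 at 0 h), 3 to 4 between genotypes at 6 h and 0 to 4 in the difference between responses (0 in 8 of the 12 fits, 4 without control replicate 3 at 6 h). The log2 change of Por per P450 transcript in FBXL5ΔDC livers was 2.66 without length scaling.

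Sign changes concerned Cyp1a1, Por, Cyb5a and, at 0 h, Cyp2a5, in comparisons where they were not called. Por in FBXL5ΔDC livers was at -0.0033 with upper quartile factors. Cyb5a between genotypes at 6 h was at 0.01 with DESeq2 size factors, 0.02 with upper quartile factors and 0.0015 with DESeq2, and in the difference between responses 0.01 with upper quartile factors. Over the fits without 1 library, Cyp1a1 ran from -0.06 to 0.48 in FBXL5ΔDC livers, -0.18 to 0.84 in control livers, -0.29 to 0.73 between genotypes at 6 h and -0.68 to 0.34 in the difference between responses. Cyb5a ran from -0.10 to 0.12 between genotypes at 6 h, -0.03 to 0.09 at 0 h and -0.13 to 0.10 in the difference between responses. At 0 h Cyp2a5 ran from -0.16 to 0.48 and Por from -0.13 to 0.10. The cause was not tested.

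With the replicate number as a block the counts of called genes stayed at 4, 2, 3, 0 and 2, and Cyp2e1 differed between the responses by -2.20 (edgeR adjusted p = 0.0430). The numbers gave no sign of pairing, since deviations of 18 same-numbered pairs correlated between -0.0614 and 0.0441. Adding Cyp2a4 counts, using principal transcript lengths and recounting lists without control replicate 3 at 6 h were chosen after seeing the data. Depth limited Cyp1a1 most, at 41 to 141 counts per library.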
